A study of Mus musculus with 9 samples.

Results

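Chemokines, cytokines and their receptors were followed across 9 RNA-seq libraries of mouse uterine luminal epithelium, the cell layer that faces the lumen and that an embryo first attaches to. The genes were those of the deposited table whose symbols begin with Ccl, Cxcl, Ccr, Cxcr, Il or Csf and a digit, or with Cx3cl or Tnf, without Il2rb, Il6st, Csf1 and Csf1r. Of 15158 symbols, 121 met this rule, which reads symbols alone but was set with earlier results of these data known. They comprised 12 CC chemokines, 12 CXC or CX3C chemokines, 10 chemokine receptors, 15 interleukins, 35 interleukin receptor chains, antagonists or binding proteins, 5 TNF superfamily ligands, 18 TNF receptor superfamily members, 8 TNF-alpha-induced proteins, 5 colony-stimulating factors or receptors and the antisense transcript Il1bos.

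All females were on pregnancy day 4 and had been raised to 8 weeks of age, and every genotype carried Wnt7acre, a cre recombinase under control of the epithelial gene Wnt7a. Wnt7acre mice with no other allele were the controls. ePRAoe mice (Wnt7acre/+PgrALsL/+) carried an allele for overexpression of progesterone receptor isoform A, and ePRBoe mice (Wnt7acre/+PgrBLsL/+) carried the matching allele for isoform B, and each genotype had 3 libraries. The epithelium was collected by laser capture. The labels number the biological replicates but name no animals, and what the tests can measure is therefore the scatter of these libraries, which may be technical.

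Chemokines are small secreted proteins that guide leukocytes through G-protein-coupled receptors. Interleukins and colony-stimulating factors signal mostly through receptors coupled to JAK kinases and STAT factors, whereas the interleukin-1 family and the TNF superfamily act through adaptors that lead to NF-kB. In the uterus of early pregnancy, epithelial cytokines are known to be set by ovarian steroids and to act on the leukocytes and stroma beneath the epithelium. Progesterone is widely described as an anti-inflammatory hormone in this tissue.

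Pgr itself was listed at 17.4, 3.82 and 6.62 FPKM in the 3 Wnt7acre libraries, 41.7, 49.5 and 42.8 FPKM in ePRAoe and 38.1, 38.3 and 45.9 FPKM in ePRBoe. FPKM counts sequenced fragments by gene length and library depth, and at gene level the isoforms are not told apart. The libraries summed to between 272213 and 314010 FPKM, of which the 121 genes took 0.290% to 0.423%. All 12 markers of luminal epithelium were in the table and summed to between 1545 and 2259 FPKM per library. The 13 stromal markers summed to 94.1 to 126 FPKM in Wnt7acre, 214 to 376 FPKM in ePRAoe and 384 to 532 FPKM in ePRBoe. The 8 general leukocyte markers summed to 108 to 194 FPKM in Wnt7acre, 83.2 to 101 FPKM in ePRAoe and 268 to 319 FPKM in ePRBoe. Wnt7acre replicate 1 stood apart in neutrophil markers, of which 3 of the 7 listed were in the table. They summed to 59.8 FPKM there and to between 0.858 and 3.29 FPKM in the other 8 libraries. S100a8 (24.4 FPKM) and S100a9 (33.5 FPKM) made up most of that sum. Ly6g, at 1.90 FPKM there, was within its range elsewhere (0.082 to 1.98 FPKM). In whole captured tissue, fewer cells of a type and less RNA per cell cannot be told apart, and the part of these cell types in the results below was not tested.

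The sequences just upstream of 4 genes that separated the genotypes are shown, because they are the stretches on which a receptor or a downstream factor could act. Each is the 250 bases before a start site in RefSeq (GRCm38.p6), 5′ to 3′ on the strand of the gene. Capitals mark matches on either strand to ACANNNTGT (a progesterone receptor-like palindrome), GGANNTTCC (NF-kB-like) or TTCNNNGAA (STAT). Il1f9 is at chr2:24186226-24186475 on the plus strand, Il1a at chr2:129309973-129310222 on the minus strand, Ccl12 at chr11:82101595-82101844 on the plus strand, and Il16 at chr7:83735540-83735789 on the minus strand.
Il1f9: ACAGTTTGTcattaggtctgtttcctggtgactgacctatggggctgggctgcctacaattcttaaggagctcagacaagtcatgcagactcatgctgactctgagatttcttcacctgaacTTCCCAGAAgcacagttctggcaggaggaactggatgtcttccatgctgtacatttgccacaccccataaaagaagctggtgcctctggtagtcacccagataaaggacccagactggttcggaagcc
Il1a: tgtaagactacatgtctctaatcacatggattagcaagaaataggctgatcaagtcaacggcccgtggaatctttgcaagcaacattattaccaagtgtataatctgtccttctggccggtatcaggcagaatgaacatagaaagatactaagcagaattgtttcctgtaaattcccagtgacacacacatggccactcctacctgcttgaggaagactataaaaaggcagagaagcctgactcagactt
Ccl12: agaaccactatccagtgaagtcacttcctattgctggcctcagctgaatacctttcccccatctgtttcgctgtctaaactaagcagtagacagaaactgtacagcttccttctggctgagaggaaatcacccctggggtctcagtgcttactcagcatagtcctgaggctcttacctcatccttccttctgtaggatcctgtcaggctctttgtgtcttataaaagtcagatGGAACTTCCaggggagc
Il16: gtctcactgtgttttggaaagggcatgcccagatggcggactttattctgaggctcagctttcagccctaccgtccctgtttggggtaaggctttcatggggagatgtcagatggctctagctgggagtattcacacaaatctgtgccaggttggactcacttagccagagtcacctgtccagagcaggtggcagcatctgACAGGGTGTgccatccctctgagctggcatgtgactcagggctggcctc
The Il1f9 window held an ACANNNTGT match beginning at position -250 from the start and a TTCNNNGAA match at -128. The Il16 window held an ACANNNTGT match at -49. It lies inside the gene as annotated in GENCODE M21, which extends to 83745726. Of the other Il16 start windows in RefSeq, 1 held a GGANNTTCC match at -48 and 1 held none of the patterns. The Ccl12 window held a GGANNTTCC match at -17. The Il1a window held none of the 3 patterns. Over windows of 300 bases (250 before and 50 after the start), ACANNNTGT was in 2 of the 25 windows of called genes and in 6.85% of all 32851 windows. Those 2 are the Il1f9 and Il16 windows shown, and the 25 windows cover 17 of the 23 called genes. GGANNTTCC was in 3 of the 25 and 4.26% of all, and TTCNNNGAA was in 5 of the 25 and 8.3% of all. Over the 111 windows of the 93 members with a RefSeq entry, the 3 patterns were found in 2.7%, 14.41% and 17.12%. A match is a run of letters, not a shown binding site.

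Most of these genes were low. Of the 121, 23 were under 1 FPKM in all 9 libraries, 17 averaged at least 10 FPKM, and 3 averaged over 100 FPKM: Cxcl17 (mean 213 FPKM over the 9 libraries), Il17rb (202 FPKM) and Tnfrsf21 (145 FPKM). The test took genes that reached 1 FPKM in 3 or more libraries, which kept 74 of the 121 and left out 47. Differences are on the log2(FPKM + 1) scale, which understates the change of low genes. They were tested with limma in a fit of all 9 libraries with a term for sequencing run, and p-values were adjusted by the Benjamini-Hochberg method over all 12347 tested genes.

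Between ePRAoe and Wnt7acre, 6 of the 74 tested members rose and 16 fell at an adjusted p under 0.05. Over all tested genes 7.2% rose and 8.98% fell, against 8.11% and 21.6% of the members. The median difference was -0.39 over the members and -0.03 over all tested genes. Of those that fell, 5 (Ccl12, Il1f6, Il1f9, Il1rap and Il1rn) reached 1 FPKM in the 3 Wnt7acre libraries and in no other, so they entered the test through the genotype in which they were high and could only be called lower. Likewise, Tnfrsf9 and Tnfaip6 among those that rose were under 1 FPKM in all 3 controls and entered through the overexpressing libraries alone. The members' shares and median are therefore not read against those of all tested genes. All 22 differences had the same sign within each of the 3 sequencing runs. The fitted difference is the mean of these within-run differences, so calls favour genes in which they agree. Their agreement is no separate support. With any 1 of the 9 libraries left out and the tested genes kept fixed, 9 of the 22 calls were kept. These were Ccl12, Cxcl16, Il16, Il1a, Il1f8, Il1f9, Il6ra, Tnfaip2 and Tnfsf10. With the filter applied anew, Ccl12 and Il1f9 would leave the test without any 1 of the controls, so their being kept is no separate support. Where a run holds a single library each of Wnt7acre and ePRAoe, leaving out either gives the same difference.

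Between ePRBoe and Wnt7acre, 3 of the 74 rose and 5 fell, beside 6.41% and 2.48% of all tested genes. Of the falls, Ccl12, Il1f6 and Il1f9 again entered the test through the controls alone, and Il1a through the controls and an ePRAoe library. Of the rises, Tnfrsf9 entered through the overexpressing libraries alone. Neither count is therefore read against those shares. The members' median difference was 0.10, as was that of all tested genes. All ePRBoe libraries came from run 1, which holds Wnt7acre replicate 3 alone among the controls, and none of the 8 calls was kept with every library left out in turn. Without that control no member was called in this comparison. All 8 differences had the sign of the comparison with it alone, which is no separate support, since the fit draws on that same library. With median-of-ratios scaling, under which the median over all genes moved from 0.10 to -0.03, 3 rose and 8 fell. With quantile normalization 2 rose and 9 fell, so that 18.2% of the calls were rises in place of 37.5%. The comparison with ePRAoe and this one share the control libraries, so values for both genotypes are given side by side below.

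**Figure D1:**
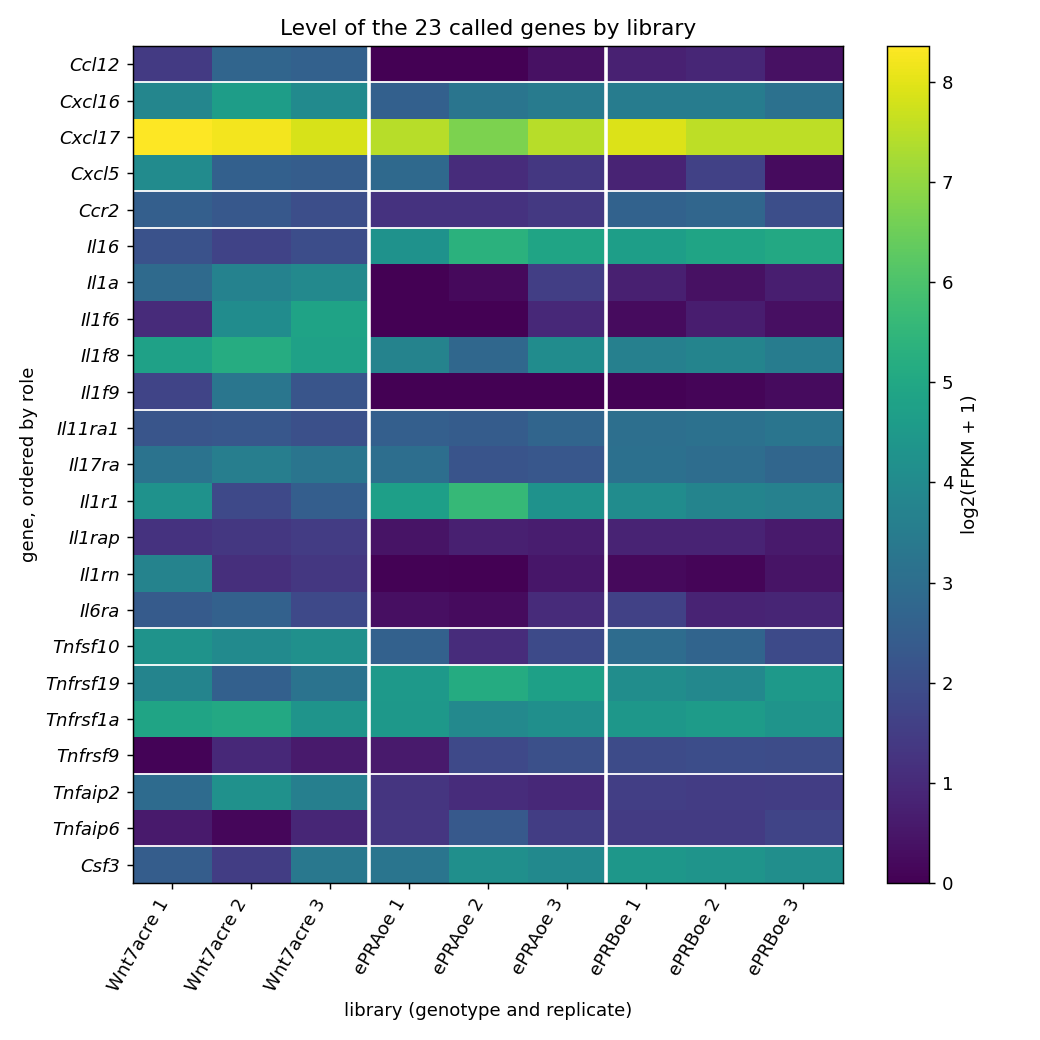
Level of the 23 genes called in either comparison with Wnt7acre, as log2(FPKM + 1), in each of the 9 libraries (columns), with genes ordered by role and white lines between roles and genotypes. Il16 is brighter in all 6 overexpressing libraries, Il1a, Il1f6, Il1f9, Ccl12 and Tnfaip2 are darker in them, and Cxcl17 is the brightest row in every library.

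**Figure D2:**
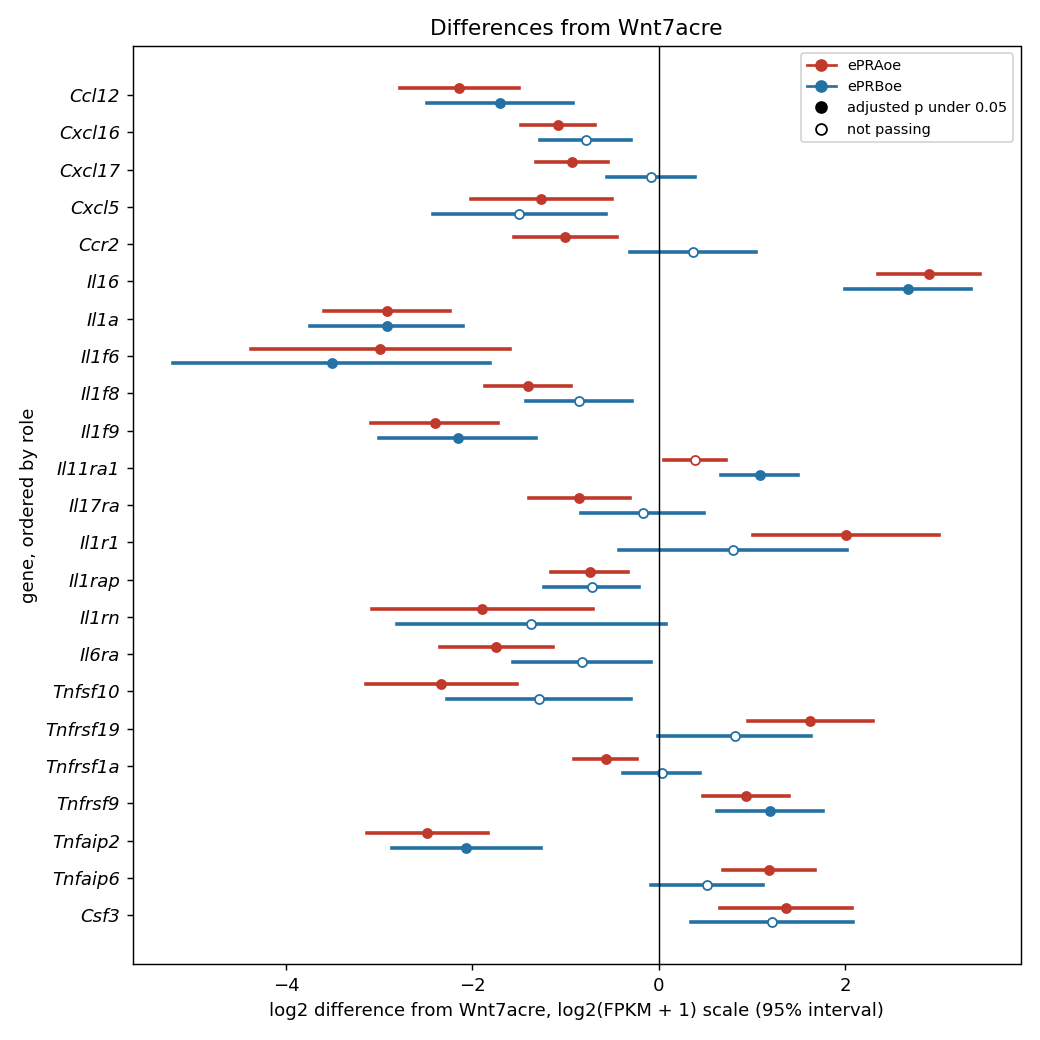
Log2 difference from Wnt7acre of the same 23 genes in ePRAoe (red) and ePRBoe (blue) on the log2(FPKM + 1) scale, with 95% intervals from limma and filled points for an adjusted p under 0.05. Cxcl17 and Ccr2 are filled in ePRAoe alone and Il11ra1 in ePRBoe alone, and Il1f9 is listed at 0 in all 3 ePRAoe libraries, so its red point is no measure of its fold.

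Among the interleukin-1 family ligands, Il1a, Il1f6 and Il1f9 fell in both overexpressing genotypes and Il1f8 fell in ePRAoe. Il1a, which encodes the alarmin interleukin-1 alpha, was listed at 6.35, 12.1 and 14.1 FPKM in Wnt7acre replicates 1 to 3, 0, 0.154 and 1.93 FPKM in ePRAoe and 0.654, 0.308 and 0.616 FPKM in ePRBoe. Every overexpressing library lay below every control. The difference was -2.92 ± 0.29 (SE) in ePRAoe (adjusted p = 0.00208, limma) and -2.92 ± 0.35 in ePRBoe (adjusted p = 0.00646, and 0.0678 without Wnt7acre replicate 3). The 95% interval of the direct difference of ePRBoe from ePRAoe in Il1a ran from -0.83 to 0.82.

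The 3 ligands of the interleukin-36 receptor, alpha (Il1f6), beta (Il1f8) and gamma (Il1f9), lie in order of beta, gamma and alpha on the plus strand of chromosome 2 (mm10) from 24153161 to 24225702, followed by the antagonist genes Il1f5 and Il1rn up to 24351494. Il1f8 had the highest level of them, at 26.7, 35.5 and 26.9 FPKM in Wnt7acre, 12.2, 5.97 and 15.6 FPKM in ePRAoe and 11.4, 12.8 and 10.4 FPKM in ePRBoe, with no overlap between the controls and either genotype. It fell in ePRAoe (log2 difference -1.40 ± 0.20 (SE), adjusted p = 0.00521), while in ePRBoe the difference of -0.86 missed the threshold (adjusted p = 0.0715). That ePRBoe difference passed without Wnt7acre replicate 1 (adjusted p = 0.0463), ePRAoe replicate 1 (0.0460) or ePRAoe replicate 2 (0.0340), and also with median-of-ratios scaling (0.0407), quantile normalization (0.0454) or no run term (0.0183).

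Il1f9 was listed at 2.31, 8.77 and 3.60 FPKM in Wnt7acre, at 0 in all 3 ePRAoe libraries and at 0.046, 0.092 and 0.185 FPKM in ePRBoe. It fell in both genotypes, with an adjusted p of 0.00358 in ePRAoe and of 0.0138 in ePRBoe (log2 difference -2.16). The ePRBoe call was lost on leaving out Wnt7acre replicate 3 (adjusted p = 0.109) or ePRAoe replicate 2 (0.0637).

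Il1f6 varied most among the controls, at 1.03, 15.6 and 28.0 FPKM, and stood at 0, 0 and 0.947 FPKM in ePRAoe and 0.172, 0.603 and 0.258 FPKM in ePRBoe. The lowest control, replicate 1, was only just above the highest ePRAoe library. Il1f6 fell in ePRAoe (log2 difference -2.99 ± 0.60 (SE), adjusted p = 0.0161) and in ePRBoe (log2 difference -3.51 ± 0.73 (SE), adjusted p = 0.0283). The ePRAoe call was lost on leaving out Wnt7acre replicate 2 or 3 or ePRAoe replicate 2 or 3 (adjusted p 0.0613 to 0.0843). The ePRBoe call was lost on leaving out any of Wnt7acre replicates 2 and 3, ePRAoe replicate 3 and the 3 ePRBoe libraries (adjusted p 0.0575 to 0.296), and the difference was -1.64 without Wnt7acre replicate 3.

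Il1b, the other classical interleukin-1 agonist, did not enter the test. It was listed at 12.2, 0.507 and 0.282 FPKM in Wnt7acre, 0.169, 0.902 and 0.846 FPKM in ePRAoe and 0.056, 0.169 and 0.508 FPKM in ePRBoe, so that replicate 1 of the controls was far above the other 8 libraries. Il33, a nuclear alarmin of the same family, was also highest there, with 11.5 FPKM in Wnt7acre replicate 1 and at most 1.37 FPKM elsewhere. Il18 was detected in all libraries, at 5.80, 1.40 and 3.63 FPKM in Wnt7acre, 6.33, 0.469 and 1.70 FPKM in ePRAoe and 2.93, 3.10 and 2.99 FPKM in ePRBoe, and the genotypes overlapped.

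The receptors of this family did not move as 1 group. Il1r1, the signalling receptor of interleukin-1, was listed at 18.01, 2.58 and 4.61 FPKM in Wnt7acre, 25.5, 48.0 and 18.2 FPKM in ePRAoe and 15.7, 12.7 and 11.8 FPKM in ePRBoe. The lowest ePRAoe library was only just above Wnt7acre replicate 1. Il1r1 rose in ePRAoe (log2 difference 2.01 ± 0.43 (SE), adjusted p = 0.0201), and the call was lost on leaving out Wnt7acre or ePRAoe replicate 2 or 3 (adjusted p 0.0994 to 0.112). In ePRBoe the difference of 0.79 did not pass (adjusted p = 0.393), but it was 1.18 with an adjusted p of 0.0232 without Wnt7acre replicate 1 and 0.0235 without ePRAoe replicate 1. Il18r1, the ligand-binding chain of the interleukin-18 receptor, stood at 7.04, 2.13 and 1.54 FPKM in Wnt7acre, 6.82, 55.2 and 21.1 FPKM in ePRAoe and 12.2, 14.3 and 14.9 FPKM in ePRBoe. Its ePRAoe difference of 2.41 ± 0.69 narrowly missed the threshold (adjusted p = 0.0520), and passed at 3.64 without Wnt7acre replicate 1 (adjusted p = 0.00194) or its run partner ePRAoe replicate 1 (0.00196), with values rescaled to TPM (0.0449) or with no run term (0.0418). Its ePRBoe difference passed without either of those libraries, at 2.12 (adjusted p = 0.0178 and 0.0181).

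Il1rap, the accessory chain shared by several receptors of the interleukin-1 family, was listed at 1.36, 1.55 and 1.80 FPKM in Wnt7acre, 0.37, 0.651 and 0.589 FPKM in ePRAoe and 0.78, 0.774 and 0.52 FPKM in ePRBoe. Il1rap fell in ePRAoe (log2 difference -0.74 ± 0.18 (SE), adjusted p = 0.0307), and the call was lost on leaving out any library except ePRBoe replicate 3 (adjusted p 0.0574 to 0.115). The interleukin-36 receptor Il1rl2 stayed near 1 FPKM, at 0.971, 0.803 and 0.785 FPKM in Wnt7acre, 1.48, 1.46 and 1.33 FPKM in ePRAoe and 0.971, 1.14 and 1.59 FPKM in ePRBoe, and passed in neither comparison. Il1rn, the interleukin-1 receptor antagonist, was listed at 12.3, 1.19 and 1.58 FPKM in Wnt7acre, 0.028, 0 and 0.424 FPKM in ePRAoe and 0.169, 0.085 and 0.367 FPKM in ePRBoe. Its ePRAoe level fell (log2 difference -1.89 ± 0.51 (SE), adjusted p = 0.0433), a difference of -0.99 without Wnt7acre replicate 1, and the call was lost on leaving out Wnt7acre replicate 3, ePRAoe replicate 2 or any 1 of the ePRBoe libraries (adjusted p 0.0648 to 0.109) or the run term (0.0652).

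**Figure D3:**
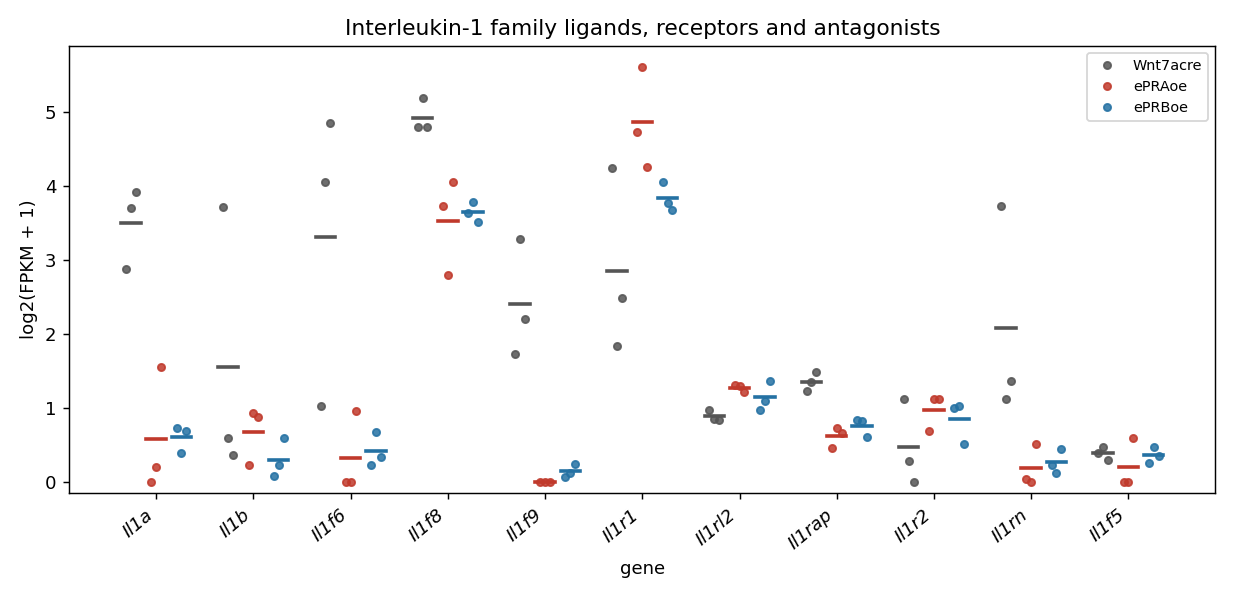
Levels of 11 interleukin-1 family ligands, receptors and antagonists as log2(FPKM + 1), with a point for each library and a bar for the mean of the 3 libraries of a genotype. Il1a, Il1f8 and Il1f9 are lower in all 6 overexpressing libraries than in the controls, Il1r1 is highest in ePRAoe, and Wnt7acre replicate 1 lies far above the other libraries in Il1b and Il1rn.

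Il16, which encodes a precursor of a secreted ligand of CD4, had the largest rise of the set. It was listed at 3.29, 2.23 and 2.93 FPKM in Wnt7acre, 18.1, 39.0 and 28.6 FPKM in ePRAoe and 24.7, 28.8 and 32.0 FPKM in ePRBoe. The 6 overexpressing libraries were all above the controls by a wide margin. The difference was 2.90 ± 0.24 in ePRAoe (7.46-fold on that scale, adjusted p = 0.00147, limma) and 2.68 ± 0.29 in ePRBoe (adjusted p = 0.00460, and 0.0602 without Wnt7acre replicate 3). Of the annotated exonic bases of Il16 (chromosome 7, 83642825 to 83745726, minus strand), 15.3% also lie in exons of Stard5 on the other strand. Stard5, a lipid-binding protein gene, was listed at 36.9, 38.2 and 40.5 FPKM in Wnt7acre, 86.6, 97.8 and 62.4 FPKM in ePRAoe and 64.4, 92.1 and 71.0 FPKM in ePRBoe. Without a stated strand setting, reads of the shared bases cannot be told apart. Other called genes that share exonic bases with a gene on the opposite strand are Cxcl16 (18.3% with Zmynd15, at most 0.33 FPKM), Il1a (11.2%), Tnfaip2 (6.3%), Il1rap (4.9%), Il6ra (2.8%) and Il11ra1 (0.2%).

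Other interleukins with a known uterine role were low or within the spread. Il15, which supports uterine natural killer cells, stood at 0.769, 1.54 and 1.60 FPKM in Wnt7acre, 1.30, 1.66 and 4.67 FPKM in ePRAoe and 3.84, 1.95 and 4.38 FPKM in ePRBoe. All 3 ePRBoe libraries were above the controls, but the difference of 0.96 did not pass (adjusted p = 0.153). Il6 was listed at 7.26 FPKM in ePRAoe replicate 2 and at no more than 1.07 FPKM elsewhere.

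Among interleukin receptors, Il6ra, the ligand-binding chain for interleukin-6, fell most. It was listed at 4.28, 5.06 and 2.61 FPKM in Wnt7acre, 0.27, 0.18 and 1.06 FPKM in ePRAoe and 2.05, 0.765 and 0.81 FPKM in ePRBoe. The ePRAoe libraries did not overlap the controls (log2 difference -1.74 ± 0.26 (SE), adjusted p = 0.00591), and the ePRBoe difference of -0.82 did not pass (adjusted p = 0.154, and 0.0349 with no run term). Il17ra, the shared chain of the interleukin-17 receptors, stood at 8.04, 10.9 and 8.41 FPKM in Wnt7acre, 7.09, 3.47 and 3.77 FPKM in ePRAoe and 7.45, 6.95 and 5.84 FPKM in ePRBoe. It fell in ePRAoe (log2 difference -0.85 ± 0.23 (SE), adjusted p = 0.0450), a call lost on leaving out Wnt7acre or ePRAoe replicate 2 or 3 or any ePRBoe library (adjusted p 0.0666 to 0.200) and also with no filter on low values (0.0580), quantile normalization (0.0532) or TPM (0.0547).

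The epithelial chains Il17rb and Il17re had the highest mean levels among the interleukin receptors. Il17rb, part of the receptor for interleukin-25, was listed at 287, 19.8 and 144 FPKM in Wnt7acre, 438, 173 and 154 FPKM in ePRAoe and 233, 202 and 169.5 FPKM in ePRBoe. Wnt7acre replicate 2 was far below the other 8 libraries, and the genotypes did not differ by the test (ePRAoe 1.26, adjusted p = 0.101). Il17re, part of the receptor for interleukin-17C, stood at 18.6, 48.4 and 36.6 FPKM in Wnt7acre, 29.2, 11.0 and 9.84 FPKM in ePRAoe and 20.2, 19.4 and 14.5 FPKM in ePRBoe. It passed in neither comparison, but was called as fallen in both without Wnt7acre replicate 1 or ePRAoe replicate 1.

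Il11ra1, the receptor chain for interleukin-11 that is known to be needed for decidualization of the stroma, rose in ePRBoe. It was listed at 3.64, 3.84 and 3.14 FPKM in Wnt7acre, 4.77, 4.46 and 5.62 FPKM in ePRAoe and 7.28, 7.64 and 8.57 FPKM in ePRBoe, with no overlap between any pair of genotypes. The ePRBoe difference was 1.08 ± 0.18 (adjusted p = 0.0135, limma), while that of ePRAoe, 0.39, did not pass (adjusted p = 0.112). The ePRBoe call was lost on leaving out Wnt7acre replicate 3, ePRAoe replicate 2 or ePRBoe replicate 2 or 3 (adjusted p 0.0511 to 0.112). Mouse Il11ra1 has a near-identical copy, Il11ra2, so its level is uncertain where reads match both. Il15ra, which presents interleukin-15 to neighbouring cells, stood at 1.39, 1.62 and 1.28 FPKM in Wnt7acre, 1.69, 0.903 and 1.81 FPKM in ePRAoe and 2.11, 3.16 and 2.52 FPKM in ePRBoe (ePRBoe difference 0.78, adjusted p = 0.0875).

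Among the chemokines, 1 of 5 tested CC chemokines and 3 of 7 tested CXC or CX3C chemokines fell in ePRAoe and none rose. Over all tested genes 8.98% fell and 7.2% rose. The chemokines are few, and Ccl12, the CC chemokine that fell, entered the test through the controls alone. Their counts are therefore not read against those shares. Ccl12, a ligand of the monocyte receptor Ccr2, was listed at 1.70, 5.67 and 5.11 FPKM in Wnt7acre, 0, 0 and 0.284 FPKM in ePRAoe and 0.709, 0.851 and 0.284 FPKM in ePRBoe. It was below every control in all 6 overexpressing libraries and fell in ePRAoe (log2 difference -2.14 ± 0.27 (SE), adjusted p = 0.00396) and in ePRBoe (log2 difference -1.70 ± 0.34 (SE), adjusted p = 0.0237). The ePRBoe call was lost on leaving out Wnt7acre replicate 3 (adjusted p = 0.251), ePRAoe replicate 2 or any 1 of the ePRBoe libraries (0.0525 to 0.0682), and with a pseudocount of 0.1 FPKM.

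Cxcl17, a mucosal chemokine that draws myeloid cells, had the highest mean of the set over the 9 libraries, although Il17rb was the higher in ePRAoe replicates 1 and 2 and ePRBoe replicate 2. Its levels were 328, 299 and 228 FPKM in Wnt7acre, 177, 104 and 175 FPKM in ePRAoe and 239, 183 and 183 FPKM in ePRBoe. The ePRAoe libraries lay below all the others, and the gene fell in ePRAoe (log2 difference -0.93 ± 0.17 (SE), adjusted p = 0.0108). The call was lost on leaving out Wnt7acre replicate 3 (adjusted p = 0.0617) or ePRAoe replicate 2 (0.0635). In ePRBoe the difference from the controls was -0.09, with a 95% interval of -0.56 to 0.39. The direct difference of ePRBoe from ePRAoe, 0.84, did not pass (adjusted p = 0.112).

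Cxcl16, a membrane-bound ligand of Cxcr6, was listed at 13.4, 24.1 and 15.2 FPKM in Wnt7acre, 4.91, 8.47 and 10.1 FPKM in ePRAoe and 10.3, 10.5 and 7.76 FPKM in ePRBoe. All overexpressing libraries were below the controls. It fell in ePRAoe (log2 difference -1.08 ± 0.17 (SE), adjusted p = 0.00706), and the ePRBoe difference of -0.78 missed the threshold (adjusted p = 0.0590) but passed with median-of-ratios scaling (adjusted p = 0.0364) and quantile normalization (0.0428). Cxcl5, a neutrophil attractant, stood at 15.4, 4.96 and 4.50 FPKM in Wnt7acre, 6.29, 1.10 and 1.56 FPKM in ePRAoe and 0.78, 2.07 and 0.184 FPKM in ePRBoe. Cxcl5 fell in ePRAoe (log2 difference -1.26 ± 0.33 (SE), adjusted p = 0.0389) although ePRAoe replicate 1 overlapped the controls. The call was lost on leaving out any 1 of the Wnt7acre and ePRAoe libraries or ePRBoe replicate 1 (adjusted p 0.0629 to 0.157), and with a pseudocount of 0.1 (0.138) or 0.5 (0.0654), TPM (0.106) or no run term (0.185). The ePRBoe difference was -1.50 (adjusted p = 0.0588, and 0.0310 without ePRBoe replicate 2 or 0.0254 under quantile normalization).

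Cxcl10, an interferon-induced attractant of T and natural killer cells, stood at 1.31, 2.35 and 4.98 FPKM in Wnt7acre, 0.277, 0.553 and 0.484 FPKM in ePRAoe and 0.622, 2.97 and 0.484 FPKM in ePRBoe. Each ePRAoe library was below the controls, with a difference of -1.33 that did not pass (adjusted p = 0.0632, and 0.0232 without ePRBoe replicate 2 or 0.0485 with a pseudocount of 0.1). Cxcl12, a stromal chemokine, stood at 0.255, 0.616 and 0.786 FPKM in Wnt7acre, 0.457, 1.15 and 3.00 FPKM in ePRAoe and 2.10, 3.58 and 2.64 FPKM in ePRBoe, beside the higher stromal marker sums of both genotypes. Its ePRBoe difference of 1.23 did not pass (adjusted p = 0.0620), but did without Wnt7acre replicate 1 (adjusted p = 0.0491) or ePRAoe replicate 1 (0.0492) or with no run term (0.0386). Cxcl14 ranged from 1.91 to 17.6 FPKM over the 9 libraries and Ccl25 from 1.25 to 12.9 FPKM, and neither passed. Ccl6, Cx3cl1, Ccl5 and Ccl27a did not pass in any comparison either. Cxcl1 and Ccl28 were below 2 FPKM in every library and were not tested.

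Of the 4 tested chemokine receptors, Ccr2 fell in ePRAoe. This receptor of inflammatory monocytes was listed at 4.79, 3.90 and 2.99 FPKM in Wnt7acre, 1.31, 1.31 and 1.63 FPKM in ePRAoe and 5.23, 5.78 and 3.05 FPKM in ePRBoe, so that ePRAoe was low and the other genotypes overlapped. The ePRAoe difference was -1.001 ± 0.24 (adjusted p = 0.0290, limma), and the call was lost on leaving out any 1 of the 6 Wnt7acre and ePRAoe libraries (adjusted p 0.0772 to 0.0972). Of 8 leukocyte markers 2 fell in ePRAoe, and 4 rose in ePRBoe, where Ccr2 did not pass. Of 9 tested macrophage and dendritic cell markers, 1 rose and 2 fell in ePRAoe, and 2 rose in ePRBoe. Among all tested genes 7.2% rose and 8.98% fell in ePRAoe, and 6.41% rose in ePRBoe. The part of these cells in the result was not tested. Cxcr4, the receptor of Cxcl12, ranged from 0.964 to 5.45 FPKM and did not pass.

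Among the TNF superfamily ligands, Tnfsf10, which encodes the death ligand TRAIL, was listed at 18.7, 15.1 and 17.5 FPKM in Wnt7acre, 5.04, 1.08 and 2.64 FPKM in ePRAoe and 6.81, 5.49 and 2.69 FPKM in ePRBoe. Every overexpressing library was below the controls. Tnfsf10 fell in ePRAoe (log2 difference -2.33 ± 0.35 (SE), adjusted p = 0.00593), and the ePRBoe difference of -1.28 did not pass (adjusted p = 0.108), but did with no run term (0.0217). Tnfrsf10b, the mouse receptor of TRAIL, stayed between 12.03 and 34.0 FPKM and did not pass. Tnf itself was at or below 1.38 FPKM in every library and Tnfsf11, the RANK ligand, was above 1 FPKM in ePRBoe replicate 1 alone (2.07 FPKM). The decoy receptor Tnfrsf11b was under 1 FPKM in all 9.

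In the TNF receptor superfamily, 2 of 11 tested members rose and 1 fell in ePRAoe, beside 7.2% and 8.98% of all tested genes. The genes are few, and Tnfrsf9 could only be called higher in this test, so the counts are not read against those shares. Tnfrsf19, an orphan receptor known as a Wnt target, was listed at 12.8, 4.87 and 8.07 FPKM in Wnt7acre, 21.8, 34.4 and 25.7 FPKM in ePRAoe and 16.2, 13.9 and 21.6 FPKM in ePRBoe. Its ePRAoe libraries were above all the others (log2 difference 1.63 ± 0.29 (SE), adjusted p = 0.0105), and the call was lost on leaving out Wnt7acre or ePRAoe replicate 2 or 3 (adjusted p 0.0641 to 0.0720). The ePRBoe difference of 0.82 passed without Wnt7acre replicate 1 (adjusted p = 0.0317) or ePRAoe replicate 1 (0.0323). Tnfrsf9, the costimulatory receptor 4-1BB of activated lymphocytes, was low and also entered through the overexpressing libraries alone, at 0.068, 0.958 and 0.514 FPKM in Wnt7acre, 0.514, 2.60 and 3.08 FPKM in ePRAoe and 2.77, 2.94 and 2.88 FPKM in ePRBoe. It rose in ePRAoe (log2 difference 0.94 ± 0.20 (SE), adjusted p = 0.0195), where replicate 1 overlapped the controls, and in ePRBoe (log2 difference 1.20 ± 0.24 (SE), adjusted p = 0.0263). The ePRAoe call was lost on leaving out Wnt7acre or ePRAoe replicate 2 or 3 (adjusted p 0.0896 to 0.102) and with no run term (0.1295), and the ePRBoe call without Wnt7acre replicate 3, ePRAoe replicate 2 or any 1 of the ePRBoe libraries (adjusted p 0.0552 to 0.243) and under quantile normalization.

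Tnfrsf1a, the main receptor of TNF, was listed at 28.2, 32.1 and 19.1 FPKM in Wnt7acre, 20.8, 14.2 and 17.04 FPKM in ePRAoe and 20.3, 23.1 and 19.2 FPKM in ePRBoe, and all 3 genotypes overlapped. It fell slightly in ePRAoe (log2 difference -0.57 ± 0.15 (SE), adjusted p = 0.0377), a call lost on leaving out Wnt7acre or ePRAoe replicate 2 or 3 or any ePRBoe library (adjusted p 0.0626 to 0.151), and with no run term (0.105). Tnfrsf21 (death receptor 6) stood at 119.9, 173 and 181 FPKM in Wnt7acre, 142, 151 and 146 FPKM in ePRAoe and 126, 120.4 and 148 FPKM in ePRBoe, and the genotypes overlapped throughout.

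Of the TNF-alpha-induced proteins, Tnfaip2, whose product takes part in membrane nanotube formation, was listed at 6.66, 17.6 and 11.3 FPKM in Wnt7acre, 1.45, 1.11 and 0.958 FPKM in ePRAoe and 1.94, 1.83 and 1.87 FPKM in ePRBoe. The controls varied widely, yet the lowest stood above all 6 overexpressing libraries. Tnfaip2 fell in ePRAoe (log2 difference -2.48 ± 0.28 (SE), adjusted p = 0.00266) and in ePRBoe (log2 difference -2.06 ± 0.34 (SE), adjusted p = 0.0136), the second call being lost on leaving out Wnt7acre replicate 3 (adjusted p = 0.141) or ePRAoe replicate 2 (0.0576). Tnfaip6, a hyaluronan-binding protein of the matrix that entered the test through the overexpressing libraries alone, stood at 0.522, 0.095 and 0.855 FPKM in Wnt7acre, 1.52, 4.04 and 1.85 FPKM in ePRAoe and 1.71, 1.76 and 2.28 FPKM in ePRBoe. It rose in ePRAoe (log2 difference 1.18 ± 0.21 (SE), adjusted p = 0.0105), and the call was lost on leaving out Wnt7acre or ePRAoe replicate 2 or 3 (adjusted p 0.0593 to 0.0680). Tnfaip3 (A20), an inhibitor of NF-kB, ranged from 3.79 to 30.1 FPKM, both in ePRAoe, and Tnfaip1 from 17.6 to 29.6 FPKM, and neither passed, although Tnfaip3 was called in ePRAoe without Wnt7acre or ePRAoe replicate 1.

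Csf3, the granulocyte colony-stimulating factor, was listed at 4.46, 1.90 and 9.09 FPKM in Wnt7acre, 8.59, 17.1 and 14.6 FPKM in ePRAoe and 20.5, 19.1 and 16.5 FPKM in ePRBoe. All ePRBoe libraries were above the controls, and ePRAoe replicate 1 overlapped them. Csf3 rose in ePRAoe (log2 difference 1.36 ± 0.30 (SE), adjusted p = 0.0235), a call lost on leaving out Wnt7acre replicate 3 (adjusted p = 0.0563), ePRAoe replicate 2 (0.0572) or the run term (0.0602). Its difference was 0.83 without Wnt7acre replicate 2. In ePRBoe the difference of 1.22 missed the threshold (adjusted p = 0.0886) and passed without Wnt7acre replicate 2 (0.0264), ePRAoe replicate 3 (0.0297) or the run term (0.0172). Csf2ra, a receptor chain for granulocyte-macrophage colony-stimulating factor, stayed between 16.98 and 30.4 FPKM in all genotypes.

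Between ePRBoe and ePRAoe directly, 0 of the 74 tested members rose and 0 fell by limma at the adjusted threshold. Over all tested genes 0.316% rose and 0.0081% fell. The members' median difference was 0.35 and that of all tested genes was 0.15. With median-of-ratios scaling these were 0.22 and -0.02. The nearest members were Il2rg, the chain shared by receptors of lymphocyte growth factors, Il3ra, a receptor chain for interleukin-3, and Tnfsf12, which encodes TWEAK. Il2rg was listed at 7.27, 7.50 and 3.52 FPKM in Wnt7acre, 2.61, 2.24 and 3.06 FPKM in ePRAoe and 13.3, 11.2 and 6.22 FPKM in ePRBoe, with a difference of 1.95 between the overexpressing genotypes (95% interval 1.16 to 2.75, adjusted p = 0.0706). Tnfsf12 stood at 4.76, 5.52 and 3.14 FPKM in Wnt7acre, 3.41, 2.24 and 2.11 FPKM in ePRAoe and 7.09, 6.87 and 5.92 FPKM in ePRBoe, a difference of 1.35 (interval 0.81 to 1.90, adjusted p = 0.0706). Il3ra stood at 0.709, 0.545 and 1.31 FPKM in ePRAoe and 3.76, 2.89 and 2.45 FPKM in ePRBoe, a difference of 1.29 (interval 0.74 to 1.84, adjusted p = 0.0706).

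Those 3 passed as higher in ePRBoe, and Il1r1 as lower, without Wnt7acre replicate 1 or ePRAoe replicate 1. Without Wnt7acre replicate 1 the adjusted p was 0.0445 for Il2rg, 0.0378 for Tnfsf12, 0.0427 for Il3ra and 0.0294 for Il1r1 (difference -1.60). Il2rg also passed without ePRBoe replicate 3 (adjusted p = 0.0408). In these libraries 3 of 8 leukocyte markers, 2 of 9 macrophage and dendritic cell markers and 2 of 8 natural killer and T cell markers were higher in ePRBoe than in ePRAoe. The share of all tested genes was 0.316%. The part of these cells in the differences was not tested. The ePRBoe libraries share their run with a single ePRAoe library.

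Signalling genes downstream of these receptors were taken from lists of each pathway. Of 35 tested NF-kB and adaptor genes, 2 rose and 5 fell in ePRAoe, 2 rose and 1 fell in ePRBoe, and none passed between the overexpressing genotypes. Beside this, 7.2% of all tested genes rose and 8.98% fell in ePRAoe, and 6.41% rose and 2.48% fell in ePRBoe. The median difference of the list was -0.06 in ePRAoe and 0.11 in ePRBoe, against -0.03 and 0.10 over all tested genes. Myd88, the adaptor of the interleukin-1 receptor family, was listed at 195, 44.0 and 86.3 FPKM in Wnt7acre, 376, 323 and 192 FPKM in ePRAoe and 289, 321 and 334 FPKM in ePRBoe. Wnt7acre replicate 1, the highest control, lay just above ePRAoe replicate 3. Myd88 rose in ePRAoe (log2 difference 1.65 ± 0.23 (SE), adjusted p = 0.00481) and in ePRBoe (log2 difference 1.73 ± 0.28 (SE), adjusted p = 0.0127, and 0.145 without Wnt7acre replicate 3). Nfkbiz, an NF-kB cofactor, stood at 22.4, 33.0 and 19.6 FPKM in Wnt7acre, 14.6, 9.96 and 15.3 FPKM in ePRAoe and 15.2, 13.2 and 12.7 FPKM in ePRBoe, and fell in ePRAoe (log2 difference -0.85 ± 0.14 (SE), adjusted p = 0.00880). That call was lost on leaving out Wnt7acre replicate 3 (adjusted p = 0.0521) or ePRAoe replicate 2 (0.0524).

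Of 24 tested JAK-STAT genes, 2 rose in ePRAoe and 1 in ePRBoe, and none fell, with medians of 0.06 and 0.19. Among all tested genes 7.2% rose and 8.98% fell in ePRAoe, and 6.41% rose and 2.48% fell in ePRBoe. The rises of the list lay near those shares. Socs7, a suppressor of cytokine signalling, was listed at 12.7, 15.3 and 15.5 FPKM in Wnt7acre, 22.7, 22.1 and 25.2 FPKM in ePRAoe and 24.6, 29.4 and 29.6 FPKM in ePRBoe, with no overlap between the controls and the rest. It rose in ePRAoe (log2 difference 0.65 ± 0.13 (SE), adjusted p = 0.0168) and ePRBoe (log2 difference 0.88 ± 0.16 (SE), adjusted p = 0.0187). The ePRAoe call was lost on leaving out Wnt7acre replicate 2 (adjusted p = 0.0705) or ePRAoe replicate 3 (0.0721), and the ePRBoe call without Wnt7acre replicate 3, ePRAoe replicate 2 or ePRBoe replicate 2 or 3 (0.0696 to 0.0897).

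Of 23 tested cytokine genes under other symbols, 1 rose and 6 fell in ePRAoe and 2 rose in ePRBoe, with medians of -0.39 and 0.23. The shares of all tested genes were 7.2% and 8.98% in ePRAoe and 6.41% for rises in ePRBoe. Clcf1, a ligand of the interleukin-6 family, was listed at 21.8, 37.2 and 25.2 FPKM in Wnt7acre, 7.56, 4.83 and 7.96 FPKM in ePRAoe and 14.9, 8.90 and 8.54 FPKM in ePRBoe, and fell in ePRAoe (log2 difference -1.89 ± 0.24 (SE), adjusted p = 0.00389) with any 1 library left out. Ctf1, another ligand of that family, stood at 8.66, 3.27 and 7.27 FPKM in Wnt7acre, 30.3, 23.1 and 9.34 FPKM in ePRAoe and 15.7, 25.5 and 18.7 FPKM in ePRBoe. It rose in ePRAoe (log2 difference 1.51 ± 0.19 (SE), adjusted p = 0.00391, and 0.0510 with no run term) and in ePRBoe (log2 difference 1.30 ± 0.24 (SE), adjusted p = 0.0182), the latter lost on leaving out Wnt7acre replicate 3, ePRAoe replicate 2 or ePRBoe replicate 3 (adjusted p 0.0537 to 0.157). Xcl1, a chemokine made mostly by natural killer and T cells, stood at 7.63, 10.4 and 3.23 FPKM in Wnt7acre, 7.49, 4.84 and 4.40 FPKM in ePRAoe and 28.2, 24.4 and 13.6 FPKM in ePRBoe. It rose in ePRBoe (log2 difference 2.05 ± 0.42 (SE), adjusted p = 0.0269), where 4 of 8 natural killer and T cell markers also rose. The call was lost on leaving out Wnt7acre replicate 3, ePRAoe replicate 2 or ePRBoe replicate 1 or 2 (adjusted p 0.0525 to 0.284).

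Genes high in a single library do not pass the filter on low values, so they are given here by their levels. Of all 121 members, 34 were highest in Wnt7acre replicate 1, more than in any other library. Of these, 10 were above 1 FPKM there and at least 3 times the next library: Ccl3, Ccl4, Ccl9, Ccl17, Ccl22, Cxcl15, Cxcr2, Il1b, Il1rn and Il33, of which Il1rn alone was tested. Ccl17 and Ccl22, ligands of Ccr4 typical of dendritic cells, stood at 9.32 and 5.58 FPKM, and the neutrophil receptor Cxcr2 at 4.55 FPKM. Cxcl15, a mouse chemokine of lung and gland epithelium, stood at 8.47 FPKM, and elsewhere at no more than 0.608 FPKM. These levels belong to the library in which the neutrophil markers S100a8 and S100a9 were high. The macrophage and dendritic cell markers summed to 312 FPKM there against 113 to 268 FPKM elsewhere. Of that list only Lyz2 (154 FPKM, and at most 79.4 FPKM elsewhere) and Flt3 (0.52 FPKM) were highest in Wnt7acre replicate 1. The part of such cells was not tested. In the other libraries, the members above 1 FPKM and at least 3 times the next library were Il6 in ePRAoe replicate 2 and Tnfsf11 in ePRBoe replicate 1.

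**Figure D4:**
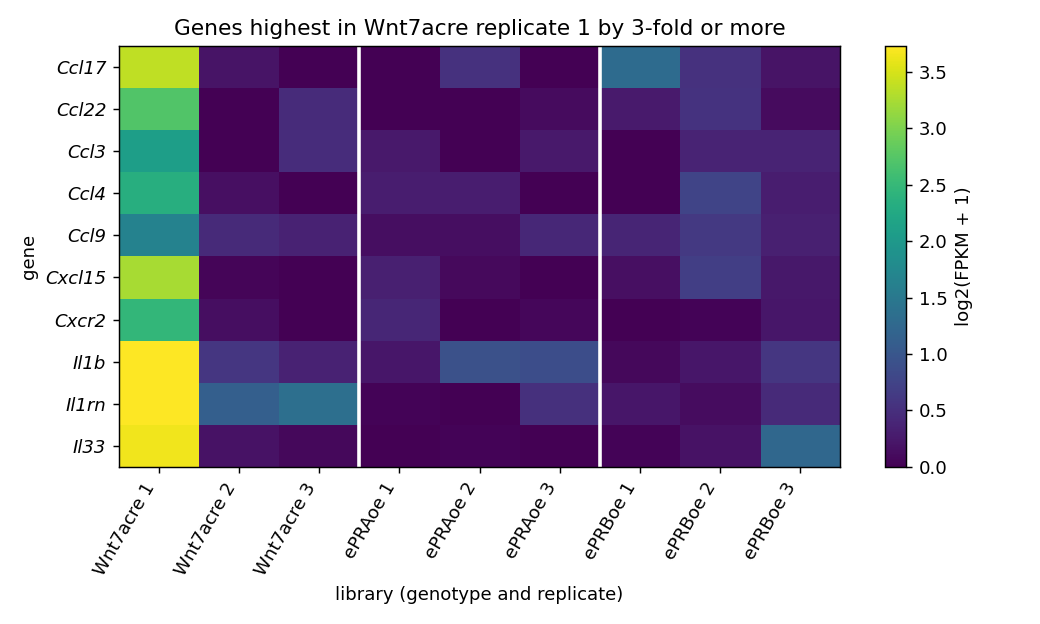
Level of the 10 members highest in Wnt7acre replicate 1 by at least 3-fold, as log2(FPKM + 1), in each of the 9 libraries. The first column is bright in all 10 rows, while the other libraries are dark in nearly all of them.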

How the data were processed

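Uterine luminal epithelium of 3 genotypes (3 libraries each) was compared. The authors deposited 1 table of FPKM values, per the file headers. The submitters' processing notes name the build mm10 and the tools STAR 2.5.2b, featureCounts 1.5.0-p1, edgeR 3.28.0 and limma 3.42.2. Annotation, strand setting, gene lengths and depth were not given in the sources used here, so no counting interval was computed.

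From the deposited FPKM, log2(FPKM + 1) was fitted with limma 3.58.1 in R 4.3.3 for genes that reached 1 FPKM in 3 or more libraries. The fit had terms for genotype and sequencing run (read from the description labels) and a variance trend. The sequencing year was 2019 for runs 1 and 2 and 2020 for run 3. Tests were two-sided, adjusted over all 12347 genes, with a threshold of 0.05. The script was tested on simulated data. Run 1 held Wnt7acre replicate 3, ePRAoe replicate 2 and all ePRBoe libraries, run 2 Wnt7acre replicate 2 and ePRAoe replicate 3, and run 3 the replicates 1 of both.

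Members and lists were chosen with earlier results of these data known. Named were the called members (at most 12 per comparison and direction, averaging 2 FPKM or more in the genotype with the higher level), the 2 highest of each role, a list of members with a textbook uterine role and up to 3 called genes per pathway list. Il11, Ccl2, Ccl20 and Csf2 of that list are not analysed here. The values of 1 chemokine receptor are not reported here. Il1rap, Il17ra, Il18r1, Il1rl2, Il2rg, Il3ra, the members high in Wnt7acre replicate 1, Stard5 and a few others were named after their values were seen. Positions are from GENCODE M21 (mm10), in which all 121 members were found. The table is only partly alphabetical: 50 members, with 21 of the 23 called, stand among 4239 rows out of order. For 34 low members the step between values was multiplied by gene length. Its median was 0.0938 FPKM × kilobases in the 6 out of order and 0.0809 in the 28 in order. Of these 34, Tnfaip6 alone was called, so the steps cannot check the names of the other called rows. Names and values were taken as they stand.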

Additional observations from a re-analysis of the deposited data

How the results depend on the processing

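No called difference of a named gene changed direction under any alternative. In ePRAoe against Wnt7acre, 13 of the 22 calls were kept in every other setting in which they were tested, and 6 of the 8 in ePRBoe. With 1 library left out the 12347 tested genes were kept fixed, a choice made after the values were seen because 5 members reach 1 FPKM in the controls alone. The members that rose in ePRAoe then numbered 1 to 10 and those that fell 8 to 22, with a median difference of -0.48 to -0.31; in ePRBoe 0 to 8 rose and 0 to 7 fell; and between ePRBoe and ePRAoe 0 to 3 rose and 0 to 1 fell, with a median of 0.26 to 0.57. With a filter on a mean of at least 5 FPKM, which tests fewer genes, 7 fell in ePRAoe (median -0.16) and 1 in ePRBoe. With a pseudocount of 0.1 the ePRAoe median was -0.60 and that of ePRBoe against ePRAoe 0.58, which was 0.0695 under quantile normalization. In ePRBoe 8 fell with median-of-ratios factors, 9 under quantile normalization and, with no run term, 12 fell and 6 rose; the cause was not tested. Deviations of same-numbered libraries correlated at -0.23 to 0.17, and those of Wnt7acre and ePRAoe libraries of the same run at 0.03 to 0.18. Correlations this low cannot decide whether replicate numbers pair the samples. With a replicate block in place of the run term 2 rose in ePRAoe, and 6 rose and 10 fell in ePRBoe. Counts over all tested genes also moved with the libraries, from 324 to 1133 rises and 389 to 1588 falls in ePRAoe, from 206 to 1071 rises and 26 to 531 falls in ePRBoe, and from 0 to 422 rises and 0 to 125 falls between the genotypes. With 3 libraries a genotype, an exact permutation test of a single gene could not go below 0.1.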
